A study of Gallus gallus with 12 samples.

Results

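The comparison was between laser capture microdissection (LCM) and hand dissection of the same cell population, the mature Organiser of the chick embryo. Its members were the 6 node libraries of the 12 libraries in the series, and the 9770 of 13106 genes in the count table whose mean count over these 6 libraries was 10 or more. The LCM node group held cells cut by laser from paraffin sections of 3 embryos fixed with a modified methacarn. The manual node group held cells dissected by hand from 3 other embryos while alive. In both groups the Organiser had been marked with a fluorescent label as gastrulation closed, and the fluorescent cells that stayed there were collected when the embryos had 8 somites (embryo 1 of each method) or 9 somites (embryos 2 and 3). The labels name no strain or mutation, and each library came from a single embryo. Because no embryo was sampled by both methods, the method and the embryo cannot be told apart. Total RNA of 1 to 7 ng per sample was amplified as full-length cDNA with a kit for small amounts of RNA. Counts below are reads per gene in embryos 1, 2 and 3 of a method, in that order.

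Hensen's node is the Organiser of the bird embryo. It lies at the front of the primitive streak and lays down the notochord and the floor plate of the neural tube as it moves back, and it carries cells that remain in place and go on feeding the axis. Around it lie the neural plate, the streak and emerging presomitic mesoderm, with endoderm beneath, so these are the tissues that a dissection could include. Node and notochord cells are known for the T-box factor TBXT and for secreted signals such as SHH and CHRD, and the surrounding growth zone for FGF and Wnt ligands.

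Depth was close between methods. Total counts were 22005887 to 23776352 in LCM node libraries and 18568123 to 26850139 in manual node libraries, and 7590 to 10011 and 8659 to 10621 genes had a count. The TMM scaling factors were 1.11, 0.75 and 1.19 in LCM node libraries and 1.06, 0.97 and 0.98 in manual node libraries. The low factor of LCM embryo 2 raises all its scaled values relative to its counts. The share of counts in mitochondrial genes was 2.71% to 3.20% in LCM node libraries and 1.79% to 5.15% in manual node libraries. The 100 most abundant genes of each library took 38.2% ± 1.23 of counts in LCM node libraries and 42.6% ± 2.19 in manual node libraries (SD, n = 3 each), with no overlap. An exact 2-sided permutation test gave p = 0.1, the smallest that 3 against 3 allows (adjusted p = 0.45 over 9 library measures). W-linked genes, which in birds only females carry, had 88, 514 and 83 counts in LCM node libraries and 11229, 35 and 44 in manual node libraries, so manual embryo 1 stands alone.

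Counts in the LCM node library of embryo 2 followed, in part, a library of another embryo. Among genes with at least 100 counts in the lateral library of manual embryo 1 and no count in any other embryo except in this LCM library, there were 104, of which 100 had counts in it. The median share was 3.45% of the manual lateral count (quartiles 2.62% and 4.44%). The node library of the same manual embryo did not show this. The 13 genes with at least 100 counts in manual node 1, 10 or fewer in manual lateral 1 and none in other embryos had at most 2 counts in LCM node 2. If the median share held for every gene, carried reads would make up 4.84% of that library. Subtracting them on this estimate leaves 8179 detected genes, against 10011 as deposited. Where the reads were carried was not tested, and no other pair of libraries, lateral ones included, was examined for carried reads. The same estimate gives 432 of its 514 W-linked counts.

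**Figure D1:**
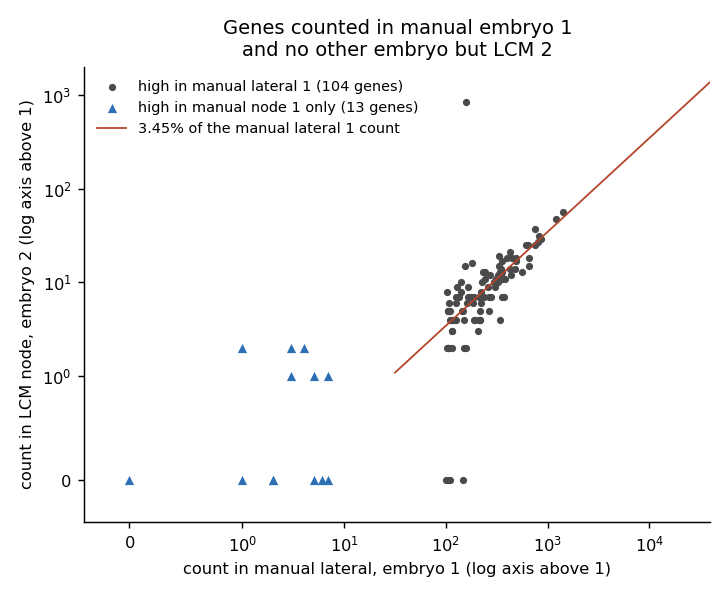
Count in the LCM node library of embryo 2 (vertical axis, reads) against the count in the manual lateral library of embryo 1 (horizontal axis, reads), both logarithmic above 1, for 104 genes counted in manual embryo 1 and in no other embryo but LCM 2 (grey) and for 13 genes high in the node library of manual embryo 1 (triangles). The grey points follow the line at 3.45% except for 1 gene far above it, and the triangles stay at 0 to 2 counts.

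The first question was which genes separate node cells taken by laser from node cells taken by hand. With the quasi-likelihood test of edgeR and a threshold of 0.05 on adjusted p, 0 of the 9770 genes (0%) were called. The lowest adjusted p was 0.195, so every gene below is given as a value and not as a call. The embryos of a method differed widely, with an estimated biological coefficient of variation of 142%. Before adjustment, 499 genes (5.11%) on the LCM side and 394 (4.03%) on the manual side had p under 0.05. In 833 genes (8.53%) all 3 LCM node libraries lay above all 3 manual node libraries on the scaled log2 scale, and in 954 genes (9.76%) all 3 lay below, which is what is meant by no overlap in what follows. With upper quartile scaling the split was 532 higher and 1439 lower, and the median over all genes of the log2 fold change, 0.05 with the main scaling (TMM), was -0.39, so directions are best read against this median. DESeq2 called 186 genes higher (1.90%) and 294 lower (3.01%), and limma voom called 1 gene, ACTB. Leaving out manual embryo 1 gave 31 higher and 5 lower calls in edgeR.

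Genes without overlap were unevenly spread over expression levels. Among the 2850 genes with a mean count of 1000 or more, 508 (17.8%) were higher and 271 (9.51%) lower in LCM node cells. Among the 2824 genes with a mean count of 10 to 100, 53 (1.88%) were higher and 268 (9.49%) lower. Abundant genes without overlap thus lay more often on the LCM side, and sparse genes more often on the manual side. The shares of all genes set beside the gene lists below were not matched for abundance. Gene span made less difference. Genes under 5 kb and with a mean count of at least 100 gave 13.3% higher and 5.91% lower, and the bins from 5 kb upward gave 9.99% to 12.4% higher and 8.4% to 11.7% lower.

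**Figure D2:**
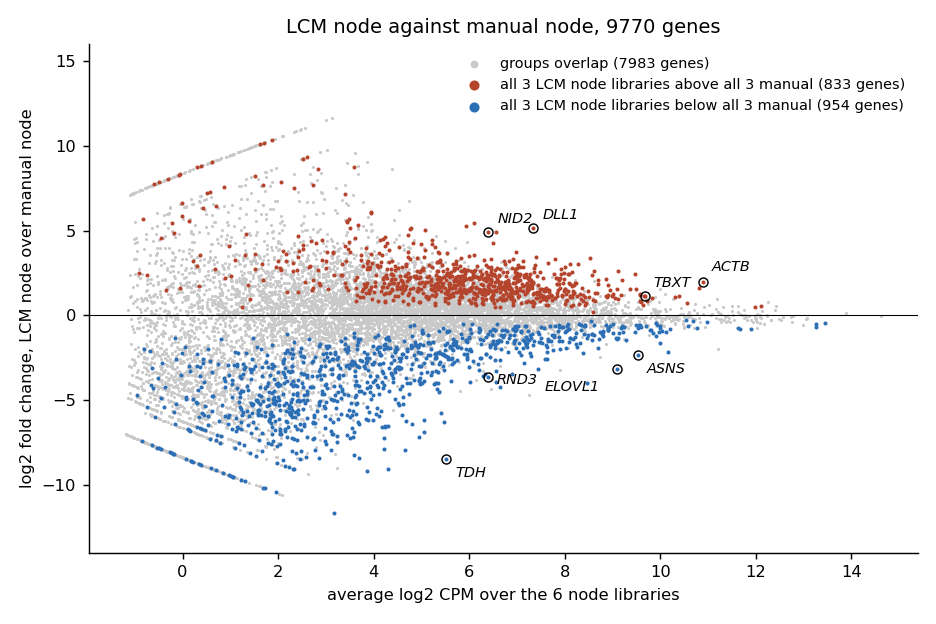
Log2 fold change of LCM node over manual node (vertical axis) against average log2 CPM over the 6 node libraries (horizontal axis) for 9770 genes. Genes without overlap are red where LCM is higher (833) and blue where LCM is lower (954). The red points crowd at high abundance, while the blue ones reach down to low abundance, and 8 named genes are ringed.

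Genes were picked by p among named genes with no overlap and an average log2 CPM of 5 or more. The 10 on the LCM side with the smallest p covered Notch signalling, basement membrane, chromatin, RNA binding and mitosis. DLL1, a Notch ligand of the neural plate and presomitic mesoderm on chromosome 3 at 40170700 to 40178161, had 9448, 5840 and 6572 counts in LCM node cells and 470, 57 and 122 in manual node cells. The groups are far apart, and the lowest LCM count is above every manual count. The log2 fold change was 5.17 ± 0.78 (± SE, as for all log2 fold changes below; edgeR adjusted p = 0.195). NID2, the basement membrane protein nidogen-2, had 3710, 3774 and 3372 LCM node counts against 272, 88 and 36 manual node counts (4.92 ± 0.90). ANKRD11, an ankyrin repeat protein that binds chromatin, had 2178, 2892 and 3975 against 165, 20 and 40 (5.46 ± 1.02). In these 3 genes LCM libraries were close together and manual libraries were both lower and more scattered. ATRX, a chromatin remodeller, had 9401, 19525 and 13263 counts in LCM node cells against 3315, 803 and 585 in manual node cells (3.40 ± 0.66). KIF26A, an atypical kinesin, had 19147, 12828 and 11283 against 4634, 1806 and 1973 (2.39 ± 0.47), and the RNA-binding protein RBM26 had 5728, 3900 and 6590 against 1314, 396 and 368 (2.99 ± 0.64). HNRNPAB, CKAP2, ACTB and CENPF complete the 10 and are given with their groups. Manual embryo 1 was the highest manual library in 398 of the 833 genes higher without overlap (47.8%), against 41.3% of all tested genes.

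On the manual side the 10 genes with the smallest p under the same limits were largely enzymes, membrane proteins and regulators of cell shape. TDH, the mitochondrial enzyme that begins threonine breakdown, on chromosome 3 at 106804291 to 106812581, had 1, 8 and 7 counts in LCM node cells and 2510, 2755 and 789 in manual node cells. It was nearly uncounted in each LCM library, and about 4 of the 8 counts in LCM embryo 2 match the carried share. Its log2 fold change was -8.47 ± 1.42 (edgeR adjusted p = 0.277). ELOVL1, which lengthens very long chain fatty acids, had 2417, 3233 and 1148 LCM node counts against 51363, 10383 and 10995 manual node counts (-3.17 ± 0.66). Nearly all of the 3233 counts of LCM embryo 2 can be matched by the 3083 carried ones. RND3, a regulator of the actin cytoskeleton, had 211, 203 and 474 counts in LCM node cells against 4609, 2412 and 3243 in manual node cells (-3.64 ± 0.76). PLEK2, a pleckstrin family protein of the cell cortex, had 275, 112 and 643 against 3863, 1833 and 3840 (-3.46 ± 0.83). Both genes were well below every manual library in each LCM library. TMEM144, a predicted membrane transporter, had 1, 23 and 7 LCM node counts against 1170, 1792 and 1147 manual node counts (-6.88 ± 1.61). FAM26E, a channel family member, had 9, 37 and 5 against 1892, 1758 and 687 (-6.15 ± 1.49). PTCD3, a protein of the mitochondrial ribosome, had 1221, 822 and 1146 LCM node counts against 5674, 5270 and 3813 manual node counts (-2.32 ± 0.58). GPR126, an adhesion receptor, had 2186, 358 and 1903 against 9953, 10552 and 2230 (-2.56 ± 0.70), and LCM embryo 1 and manual embryo 3 nearly touch. The remaining 2, ASNS and ALDH18A1, belong to amino acid synthesis.

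Markers of the node itself were examined first among the tissue lists, since they check what was dissected. TBXT, whose protein specifies notochord and streak, was abundant in all 6 libraries, with 35422, 17999 and 26284 counts in LCM node cells and 8349, 16077 and 7507 in manual node cells. Scaled for depth, each LCM value lay above each manual value, by 1.13 ± 0.44 (log2; edgeR adjusted p = 0.507). CFC1, a co-receptor for Nodal, pointed the other way, with 873, 17 and 228 LCM node counts against 2629, 4620 and 1283 manual node counts (-3.25 ± 1.14), and 10 of the 17 counts of LCM embryo 2 match the carried share. SHH, the Hedgehog ligand, had 0 counts in each LCM node library, where a floor of 3 counts per library covers counting error alone, against 57, 7 and 38 in manual node cells. FST, an activin antagonist, had 0 in each LCM library and 166, 0 and 0 in manual libraries, and GSC was the third marker at 0 in all LCM node libraries. Chordin and GNOT1, a notochord homeobox gene, overlapped between methods. CHRD had 0, 78 and 543 counts in LCM node cells against 186, 39 and 16 in manual node cells, and GNOT1 had 333, 810 and 4581 against 2734, 1557 and 1878. Of the 10 tested markers of this list 1 (10%) was higher and 2 (20%) were lower without overlap, against 8.53% and 9.76% of all genes. Their summed level, in depth-scaled CPM, was 1150 to 1410 CPM in LCM node cells and 531 to 1180 CPM in manual node cells, and most of it is TBXT. With upper quartile scaling TBXT overlapped between the groups.

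Genes of the axial growth zone gave the largest share without overlap among the lists, 10 of 17 tested members (58.8%), all higher in LCM node cells, against 8.53% of all genes. FGF3, an FGF ligand, had 8607, 3854 and 3991 LCM node counts against 1482, 750 and 1049 manual node counts (2.24 ± 0.60; edgeR adjusted p = 0.437). EVX1, a homeobox factor of the posterior streak, had 2068, 1517 and 1552 against 255, 19 and 123 (3.76 ± 1.16). The 2 groups are well apart in both genes. WNT5A, a Wnt ligand of the elongating axis, had 2908, 5669 and 5420 counts in LCM node cells against 449, 1219 and 1362 in manual node cells (2.07 ± 0.73). FGF8, the main FGF ligand of the growth zone, had 1983, 4656 and 4341 against 476, 971 and 1194 (1.95 ± 0.76). In these genes the lowest LCM count still exceeded the highest manual count. The other 6 were SALL4, LIN28B, WNT3A, CDXB, FGF4 and FGFR1, with values from 1.04 to 3.75. The count was again 10 of 17 when LCM embryo 2 was left out, against 13% of all genes. It was also 10 of 17 when its carried reads were subtracted, against 7.92% of all genes. With upper quartile scaling it was 8 of 17, against 5.45% of all genes. The median log2 fold change of the list lay 1.90 above that of all genes. Summed levels were 1740 to 4000 CPM in LCM node cells, highest in LCM embryo 2, and 845 to 967 CPM in manual node cells. In bulk tissue more cells of a type and more RNA per cell cannot be told apart. Genes that respond to FGF through ERK lay on the same side in 4 of 13 members (30.8%) without overlap, against 8.53% of all genes. With upper quartile scaling it was 2, against 5.45% of all genes. Among the 4 was SPRED2, an ERK pathway inhibitor, with 7174, 3858 and 4932 LCM node counts against 2097, 1070 and 1580 manual node counts (1.66 ± 0.56).

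**Figure D3:**
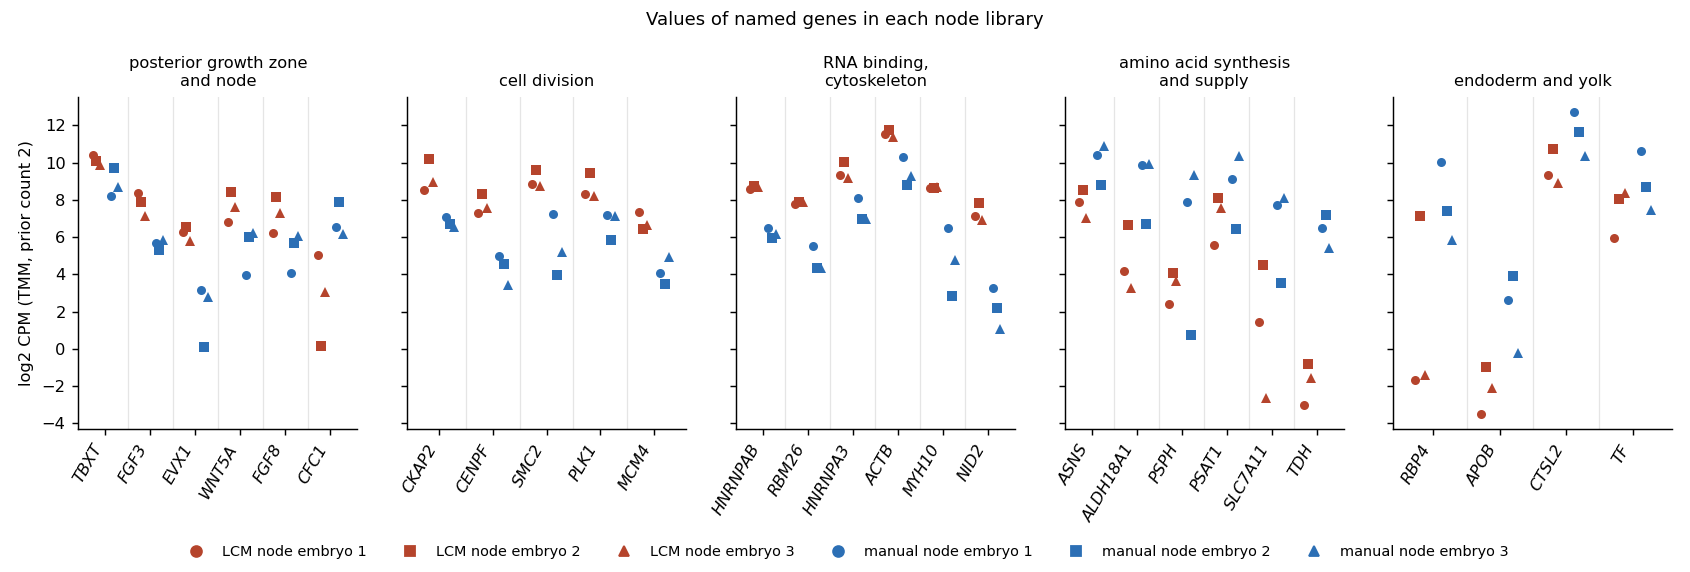
Log2 CPM (vertical axis, TMM-scaled, prior count 2) of named genes in each of the 3 LCM node libraries (red) and 3 manual node libraries (blue), with the embryo shown by the symbol. Red points lie above blue ones in the first 3 panels, except for CFC1. Among the amino acid genes manual embryo 2 (blue squares) lies near the LCM values for PSPH, PSAT1 and SLC7A11, and RBP4 is high in LCM embryo 2 alone of its group.

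Of the neural plate genes, 3 of 9 tested members (33.3%) were higher without overlap and none lower, against 8.53% and 9.76% of all genes. Besides DLL1 these were CDH2, the neural cadherin, with 8349, 6357 and 14650 LCM node counts against 4458, 4427 and 2161 manual node counts (1.28 ± 0.48), and HES5, a Notch target, with 258, 196 and 1236 against 188, 140 and 170 (log2 fold change 1.5, SE 1.51). The difference of HES5 is no larger than its error. By sign, 6 of the 9 had a positive log2 fold change and 3 a negative one. PAX-6, a neural plate factor, was among the negative ones, at -5.16 and with overlap. SOX1, IRX3, NEUROG1 and NEUROG2 matched no gene name in the count table. With upper quartile scaling 1 of the 9 was higher without overlap, against 5.45% of all genes. The summed level overlapped, at 1060 to 1950 CPM in LCM node cells and 563 to 1910 CPM in manual node cells. Presomitic mesoderm and somite genes gave 1 of 8 higher and none lower, namely LFNG, a modifier of Notch, with 1124, 1406 and 1077 against 618, 281 and 426. Their summed levels also overlapped, at 342 to 690 CPM and 323 to 431 CPM. The mesoderm factor TBX6 had 4412, 52 and 2705 LCM node counts against 350, 1535 and 974 manual node counts, so LCM embryo 2 was far below the other LCM libraries.

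Tissue that hand dissection could add was sought with marker lists for endoderm, surface ectoderm, germ cells, neural crest, heart, blood and lateral mesoderm. Some markers matched no gene name in the count table and could not be read. Among them were SOX17, FOXA1 and AFP of endoderm, SOX10 and FOXD3 of neural crest, and GATA1, TAL1 and CDH5 of blood and vessels. The endoderm and yolk list had the most tested members of these. Of its 14 tested members 13 had a negative log2 fold change, as did 4772 of all 9770 genes. Without overlap 3 of the 14, TTR, APOB and VTN, were lower in LCM node cells (21.4%, against 9.76% of all genes) and none was higher. RBP4, a retinol carrier made by endoderm and liver, had 6, 2280 and 8 counts in LCM node cells and 30207, 3288 and 1041 in manual node cells. The 2280 counts of LCM embryo 2 are about the 2337 that the carried share gives, while LCM embryos 1 and 3 were close to 0 and all manual embryos above 1000. As deposited the log2 fold change was -3.22 ± 1.77 (edgeR adjusted p = 0.514). With the carried share subtracted it was -11.19 ± 1.5 (edgeR adjusted p = 0.0487), which passes the threshold. That subtraction set LCM embryo 2 to 0, so the call rests on the median share holding for RBP4. With LCM embryo 2 left out it was -10.68 ± 1.64 (edgeR adjusted p = 0.209). TTR, a thyroid hormone carrier, had 0, 166 and 3 against 2004, 489 and 340, of which 155 in LCM embryo 2 match carried reads. APOB, the lipoprotein of yolk uptake and liver, had 0, 7 and 4 against 173, 291 and 14 (-5.25 ± 2.80), and VTN, vitronectin, had 0, 53 and 332 against 624, 610 and 254. The groups nearly touch in APOB, at 7 against 14 counts. In VTN they part only after scaling, since LCM embryo 3 had more counts than manual embryo 3. CTSL2, a cathepsin of yolk-rich endoderm, was abundant, with 17109, 28368 and 13660 LCM node counts against 193241, 61464 and 23799 manual node counts (-1.98 ± 0.59). Of the 28368 counts in LCM embryo 2 the carried share gives 16157. As deposited, RBP4 and CTSL2 overlapped between methods.

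Endoderm markers were not even among manual embryos. Manual embryo 1 was the highest manual library for 11 of the 14 members, with fibrinogen FGG at 2166, 43 and 0 counts over manual embryos 1 to 3, and at 0, 161 and 1 in LCM node cells. The iron carrier TF had 1598, 4428 and 9252 LCM node counts against 44126, 8011 and 3152 manual node counts (-1.70 ± 0.77), so LCM embryo 3 lay above manual embryo 3. Summed levels were 711 to 2170 CPM in LCM node cells and 1570 to 9670 CPM in manual node cells. CLDN18 was at 0 in all 6 libraries, and HHEX and HNF4ALPHA were at 0 in all manual ones. Without LCM embryo 2 there were 7 of 14 members lower without overlap, where 17.5% of all genes were. With the carried share subtracted there were 6, where 11.8% of all genes were. Without manual embryo 1 there were 4, where 15.3% of all genes were. Among the 8 members with a mean count of 100 or more there were 2, where 11.1% of all genes were. The part of endoderm in other differences was not tested.

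The 3 epithelial and germ cell markers without overlap were lower in LCM node cells. GRHL2, a factor of surface epithelia, had 0, 1 and 0 counts in LCM node cells against 98, 135 and 64 in manual node cells (-7.63 ± 3.22). PERP, a desmosome protein and p53 target, had 1, 13 and 33 against 234, 360 and 457 (-4.69 ± 2.14). These are the 2 of 11 surface ectoderm markers without overlap (18.2%, against 9.76% of all genes), and 4 of the 11 had a positive log2 fold change. Abundant members did not differ in this way: the epithelial adhesion protein EPCAM had 2920, 3307 and 3436 LCM node counts against 3127, 2118 and 3186 manual node counts (0.14 ± 0.57), and the keratin KRT19 had 1260, 550 and 2278 against 2231, 780 and 752 (0.02 ± 0.84). Summed levels of the list overlapped, at 464 to 696 CPM in LCM node cells and 331 to 579 CPM in manual node cells. DLX5 and GATA3 were among the markers at 0 in all 6. In the germ cell list 1 of 5 tested members (20%) was lower without overlap, against 9.76% of all genes, and all 5 had a negative log2 fold change. In a list of 5, 1 such gene does not set the list apart from that share. It was PIWIL1, a PIWI protein of the germ line. PIWIL1 had 3, 24 and 1 counts in LCM node cells against 753, 292 and 181 in manual node cells (-5.01 ± 2.25), and 21 of the 24 match carried reads. NANOG, a factor of pluripotent and germ cells, had 1, 421 and 2 against 2059, 987 and 296, and the carried share gives 419 of the 421. DAZL was at 0 in all 6 libraries, and summed levels were 0.143 to 33.3 CPM in LCM node cells and 29.4 to 119 CPM in manual node cells.

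Lists of other tissues had at most 1 member without overlap in a direction, where 8.53% of all genes were higher and 9.76% lower. In lists of 4 to 10 tested members, 1 such gene does not set a list apart from these shares. Heart genes had 1 of 10 members (10%) lower without overlap, RYR2, with 1, 0 and 1 LCM node counts against 61, 38 and 11 manual node counts. By sign, 8 of the 10 were negative and 2 positive. TNNI1 was on the positive side at 9.74, with overlap. TNNI1 and NKX2-5 were at 0 in all manual node libraries only, and ACTC1 and PLN in all LCM node libraries only. Summed heart levels overlapped, at 265 to 546 CPM and 341 to 381 CPM. The 6 tested neural crest genes gave 1 higher and 1 lower (16.7% each), at 134 to 565 CPM in LCM node cells and 186 to 340 CPM in manual node cells. The 4 tested blood and vessel genes gave none (13.4 to 53.4 CPM and 5.52 to 29.3 CPM), with the globin HBAA at 0 in all 6 libraries. The 5 tested genes of intermediate and lateral mesoderm gave 1 lower (20%), at up to 15 CPM in LCM node cells and 4.17 to 25.2 CPM in manual node cells. HAND1, PRRX1 and WT1 were at 0 in all 6 libraries.

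In the mitosis list 12 of 51 tested members (23.5%) were higher and 3 (5.88%) lower in LCM node cells without overlap, against 8.53% and 9.76% of all genes. Of its 50 members with a mean count of 100 or more 12 were higher and 3 lower, where 10.2% and 11.1% of all genes were. Among all genes with a mean count of 1000 or more, 17.8% were higher and 9.51% lower. CKAP2, a spindle protein, had 9829, 19080 and 13953 LCM node counts against 3867, 2026 and 1723 manual node counts (2.59 ± 0.52; edgeR adjusted p = 0.333). CENPF, a kinetochore protein, had 4201, 5156 and 5276 against 891, 449 and 191 (3.34 ± 0.70). Neither gene came near an overlap. SMC2, a condensin subunit, had 11960, 12697 and 12198 LCM node counts against 4268, 296 and 668 manual node counts (3.04 ± 0.75). TOP2A, the topoisomerase of dividing cells, had 5651, 7430 and 7203 against 2121, 131 and 51 (3.45 ± 1.04), and the mitotic kinase PLK1 had 8472, 11407 and 8136 against 4201, 1096 and 2523 (1.93 ± 0.56). In SMC2, TOP2A and PLK1 manual embryo 1 stood between the LCM libraries and the other manual libraries, and it was the highest manual library for 32 of the 51 members. The proliferation marker MKI67 had 3946, 1106 and 8379 LCM node counts against 630, 98 and 0 manual node counts (4.24 ± 1.49). The members on the other side were CCNF, ECT2 and AURKA. CCNF, a cyclin that guides protein degradation, had 381, 1597 and 1315 LCM node counts against 4406, 3671 and 4534 manual node counts (-1.91 ± 0.73), and the mitotic kinase AURKA had 4874, 5850 and 7544 against 10400, 8615 and 8210. With upper quartile scaling the mitosis split was 9 higher and 8 lower (5.45% and 14.7% of all genes). With the carried share subtracted it was 12 and 5 (7.92% and 11.8% of all genes). Without LCM embryo 2 it was 12 and 6 (13% and 17.5% of all genes), and without manual embryo 1 it was 17 and 8 (12.3% and 15.3% of all genes). The summed level was 8120 to 13900 CPM in LCM node cells, highest in LCM embryo 2, and 6220 to 8030 CPM in manual node cells.

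The replication list was closer to the background. Here 7 of 45 members (15.6%) were higher and 1 (2.22%) lower without overlap, against 8.53% and 9.76% of all genes. With upper quartile scaling it was 6 and 6, against 5.45% and 14.7% of all genes. MCM4, part of the replicative helicase, had 4351, 1431 and 2849 counts in LCM node cells against 480, 212 and 548 in manual node cells (2.61 ± 0.82), and MCM2 had 8109, 9864 and 5021 against 3227, 2297 and 2314. RRM2, which supplies deoxynucleotides, had 8609, 5643 and 4521 against 1837, 2109 and 2424. Every LCM count was above every manual count in these 3 genes. CHAF1B, a histone chaperone subunit, was the lower member, with 1062, 517 and 242 against 3038, 1532 and 902. Among 12 regulators that slow or gate the cycle, D-type cyclins included, 3 (25%) were higher and 2 (16.7%) lower. BTG1, an antiproliferative protein, had 4358, 4554 and 4652 LCM node counts against 1809, 1204 and 1295 manual node counts, and CCND2, a cyclin of the first gap phase, had 1825, 941 and 2554 against 5695, 3234 and 1993.

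Handling was read from genes that react to dissection within minutes to hours. Of 18 immediate early genes none was higher and 1 was lower in LCM node cells without overlap, or 0% and 5.56% against 8.53% and 9.76% of all genes. A further 16 genes of this kind, FOS, FOSB, JUNB, EGR2, IER2 and NR4A1 among them, matched no gene name in the count table and were not analysed. The lower one was DUSP1, a phosphatase that ends MAP kinase signalling, with 0, 4 and 1 LCM node counts against 149, 77 and 95 manual node counts. JUN had 0, 47 and 1 against 272, 25 and 52, and ATF3, a stress-induced factor, had 1, 34 and 153 against 672, 23 and 475, with overlap in both. EGR1 was counted almost only in LCM embryo 1, with 774, 4 and 0 against 2, 0 and 0. EGR1 was thus high in a single embryo, while DUSP1 was counted in all 3 manual embryos. Summed levels overlapped, at 300 to 358 CPM in LCM node cells and 155 to 308 CPM in manual node cells.

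Chaperones divided into members on each side. Of 25 tested, 7 (28%) were higher and 4 (16%) lower in LCM node cells without overlap, against 8.53% and 9.76% of all genes. HSPD1, the mitochondrial chaperonin, had 16746, 16647 and 16113 LCM node counts against 7433, 3583 and 3569 manual node counts (1.79 ± 0.42; edgeR adjusted p = 0.36). HSPA4 had 5163, 2942 and 9374 against 2330, 746 and 303 (2.37 ± 0.70), and the co-chaperone DNAJA1 had 5369, 6293 and 4500 against 2029, 1452 and 1242 (1.80 ± 0.57). In these 3 genes every LCM count lay above every manual count. The most abundant chaperone, the constitutive HSPA8, had 221587, 146945 and 197441 counts in LCM node cells against 444779, 184101 and 175145 in manual node cells (-0.51 ± 0.27). UBB, a ubiquitin gene, had 14563, 13178 and 13482 LCM node counts against 42997, 22598 and 19037 manual node counts (-1.02 ± 0.37). The co-chaperone DNAJB4 had 0, 49 and 0 against 1636, 396 and 206, and the carried share gives 50 for LCM embryo 2.

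Survival and damage genes were lower in LCM node cells in 6 of 23 members (26.1%) and higher in 1 (4.35%), against 9.76% and 8.53% of all genes. Under upper quartile scaling it was 7 and 1, against 14.7% and 5.45% of all genes. BCL2, which blocks apoptosis, had 0, 3 and 2 LCM node counts against 42, 228 and 141 manual node counts. MDM2, which degrades p53, had 1, 114 and 42 against 1059, 417 and 380, and the death receptor FAS had 0, 62 and 887 against 1003, 2559 and 1702. The list holds promoters and blockers of cell death on the same side. The higher member was MCL1, another blocker, with 144, 178 and 559 against 18, 0 and 20. Summed levels were 424 to 1370 CPM in LCM node cells and 1030 to 2060 CPM in manual node cells. Of 25 hypoxia genes 1 (4%) was higher and 3 (12%) were lower. SLC2A3, a glucose transporter, had 1445, 995 and 1395 LCM node counts against 12295, 4559 and 1674 manual node counts (-2.20 ± 0.66), where 1099 carried counts could make up all of LCM embryo 2. MXI1, a MYC antagonist, had 6, 5 and 0 against 349, 111 and 236 (-5.84 ± 2.60). CA9, a carbonic anhydrase that responds to low oxygen, was the higher one, with 1338, 1492 and 3019 against 341, 515 and 352. Among 23 genes of oxidative stress and metals 4 (17.4%) were higher and 3 (13%) lower. The haem oxygenase HMOX1 had 2460, 4161 and 1442 LCM node counts against 14603, 2255 and 6149 manual node counts, with overlap.

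Values of genes for amino acid synthesis and supply differed among the manual embryos as well as between the groups. ASNS, asparagine synthetase, had 6201, 5989 and 3610 counts in LCM node cells and 39160, 8682 and 34100 in manual node cells (-2.35 ± 0.56; edgeR adjusted p = 0.36), and 1753 of the counts in LCM embryo 2 match the carried share. Manual embryos 1 and 3 were several times above every LCM library and manual embryo 2 only a little above. ALDH18A1, which begins proline synthesis, had 479, 1666 and 271 LCM node counts against 26987, 2017 and 17367 manual node counts (-3.96 ± 0.98). PSPH and PSAT1, enzymes of serine synthesis, had 138, 272 and 344 against 6779, 30 and 11704 (-4.70 ± 1.37), and 1274, 4587 and 5335 against 15934, 1681 and 23946 (-1.93 ± 0.82). SLC7A11, the cystine importer, had 69, 366 and 2 against 6097, 218 and 5037, and CHAC1, which breaks down glutathione, had 1, 33 and 0 against 326, 0 and 1066. In these 4 genes manual embryo 2 was within or below the LCM range, so the groups overlap. Manual embryo 2 was also the lowest in the separate lateral libraries of the manual embryos, where ASNS had 50795, 6730 and 53975 counts, PSPH 8316, 1191 and 24953, and SLC7A11 9204, 320 and 10917. LCM lateral libraries had 5049, 7396 and 4610 counts of ASNS, 566, 657 and 309 of PSPH, and 7, 3 and 9 of SLC7A11. Manual embryo 2 was the lowest manual library for 17 of the 25 tested genes of the list of endoplasmic reticulum stress and amino acid response (68%), against 36.2% of all genes. Without overlap 5 of 25 (20%) were lower and 1 (4%) was higher, against 9.76% and 8.53% of all genes. Without manual embryo 2, edgeR called PSPH and ASNS and no other gene.

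**Figure D4:**
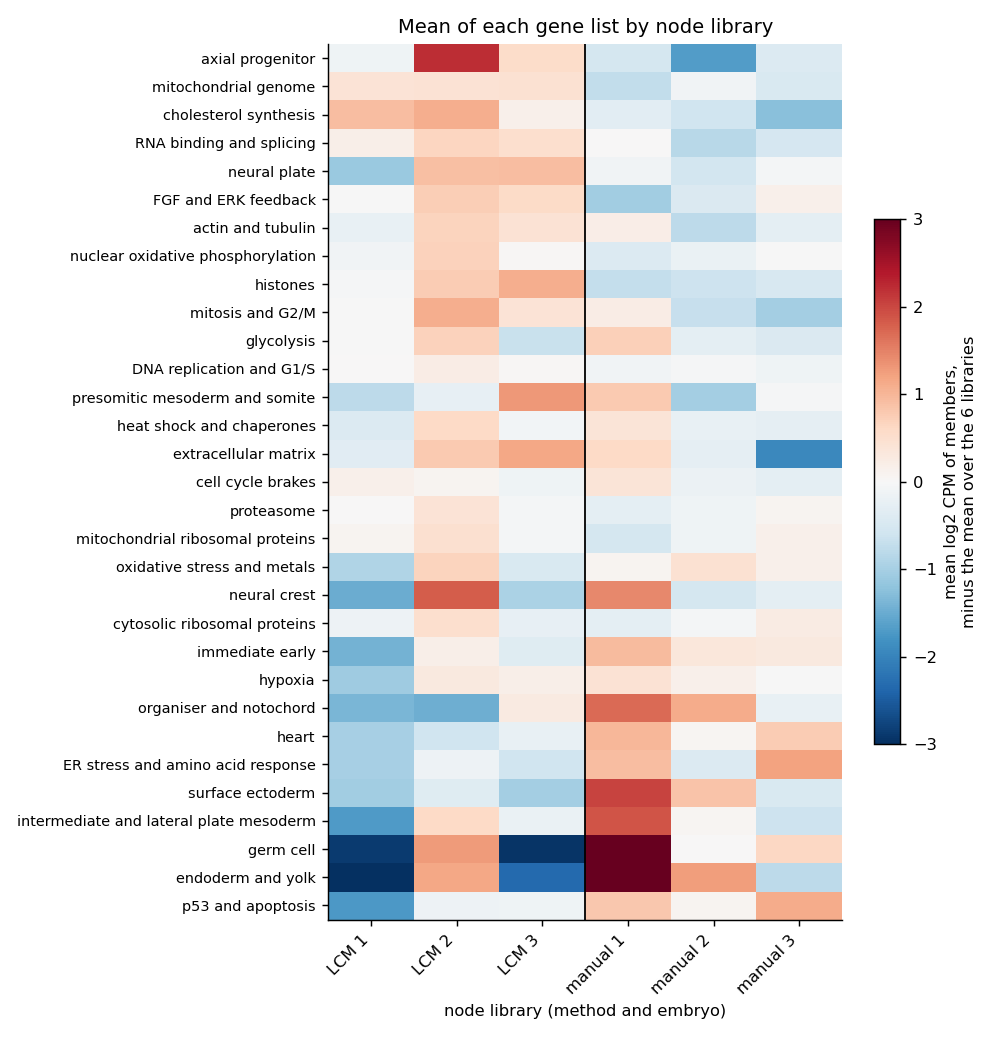
Mean log2 CPM of the tested members of each gene list (rows) in each node library (columns, LCM left of the line and manual right), minus the mean over the 6 libraries. Growth zone genes are highest in LCM embryo 2 (2.22), endoderm genes in manual embryo 1 (3.83), and the amino acid response list is high in manual embryos 1 (0.92) and 3 (1.21) but not in manual embryo 2 (-0.40). LCM embryo 2 was the highest LCM library for 88.2% of growth zone members, but also for 92.9% of cytosolic ribosomal proteins and 48.1% of all tested genes.

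RNA-binding and splicing factors were higher without overlap in 14 of 41 tested members (34.1%) and lower in none, against 8.53% and 9.76% of all genes. With upper quartile scaling the split was 8 higher and 6 lower (5.45% and 14.7% of all genes), and without LCM embryo 2 it was 15 and 4 (13% and 17.5%). HNRNPAB had 10208, 7059 and 11483 counts in LCM node cells against 2553, 1209 and 1299 in manual node cells (2.45 ± 0.48; edgeR adjusted p = 0.333). HNRNPA3 had 17048, 17477 and 15932 against 7786, 2432 and 2251 (2.12 ± 0.48). HNRNPU, a scaffold protein of the nucleus, had 4965, 8082 and 6771 against 3025, 602 and 384 (2.54 ± 0.72), and RBM25 had 4074, 3049 and 5533 against 1591, 443 and 248 (2.54 ± 0.72). In HNRNPA3, HNRNPU and RBM25 manual embryo 1 was again nearest to the LCM values. The summed level of the list was 10700 to 14800 CPM in LCM node cells, highest in LCM embryo 2, and 8570 to 9270 CPM in manual node cells.

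The cytoskeleton and matrix lists held ACTB and NID2, which were among the named genes of smallest p on the LCM side. ACTB, beta-actin, had 77193, 56878 and 75251 LCM node counts against 35771, 8706 and 11226 manual node counts (1.96 ± 0.40; edgeR adjusted p = 0.333). MYH10, a non-muscle myosin, had 10546, 6536 and 11449 against 2517, 134 and 500 (3.29 ± 0.79), and MYH9 had 4460, 3278 and 4225 against 2376, 837 and 94. The 2 rows named ACTG1 lay on opposite sides, with 44355, 27628 and 50142 LCM node counts against 32425, 10413 and 14188 manual node counts in the first, and 27776, 28318 and 31767 against 58791, 38837 and 45398 in the second. Reads of such near-identical actins cannot be told apart here, so gamma-actin is uncertain, and so is ACTB if it shares reads with these rows. Of 21 actin, tubulin and myosin genes 6 (28.6%) were higher and 1 (4.76%) lower without overlap, against 8.53% and 9.76% of all genes. Among 24 matrix genes NID2 and LAMB1 were higher and none was lower (8.33% higher), near the background. LAMB1, a laminin chain, had 1724, 7701 and 4892 counts in LCM node cells against 1043, 5 and 311 in manual node cells (3.71 ± 1.25).

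Metabolic genes differed by pathway. In cholesterol and lipid synthesis 7 of 19 members (36.8%) were higher and none lower without overlap, against 8.53% and 9.76% of all genes. With upper quartile scaling 5 were higher, where 5.45% of all genes were. FASN, fatty acid synthase, had 29966, 11614 and 16506 LCM node counts against 10860, 7238 and 5141 manual node counts (1.23 ± 0.41). SQLE, a rate-limiting enzyme of sterol synthesis, had 1925, 5561 and 1364 against 379, 249 and 784 (2.73 ± 0.94). In glycolysis 4 of 18 (22.2%) were higher and 1 (5.56%) lower. With upper quartile scaling it was 3 and 5, where 5.45% and 14.7% of all genes were. LDHA, lactate dehydrogenase A, had 13335, 30584 and 34464 counts in LCM node cells against 5645, 7289 and 1441 in manual node cells (2.45 ± 0.61; edgeR adjusted p = 0.36), and GAPDH, the most abundant gene of all, had 627695, 520611 and 543045 against 682914, 547574 and 428850 (-0.02 ± 0.23). ENO1, enolase, differed by 0.48 ± 0.29.

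Transcripts of the mitochondrial genome were higher in LCM node cells in 10 of 24 rows (41.7%) and lower in none, against 8.53% and 9.76% of all genes. With upper quartile scaling 6 were higher, where 5.45% of all genes were. The total mitochondrial share overlapped. Without manual embryo 1 the split was 9 and 4, against 12.3% and 15.3% of all genes. MT-ND5 had 23902, 21056 and 28958 LCM node counts against 11090, 6995 and 6042 manual node counts (1.57 ± 0.37), and MT-ND6, the complex I subunit on the other strand, had 9809, 8364 and 8736 against 1724, 3385 and 1419 (1.92 ± 0.55). MT-CO3, the most abundant of them, overlapped, with 152781, 144154 and 135722 against 93412, 374292 and 119848, and manual embryo 2 was far above the rest. Nuclear genes of oxidative phosphorylation were higher in 16 of 70 (22.9%) and lower in 2 (2.86%). With upper quartile scaling 7 were higher and 14 lower, where 5.45% and 14.7% of all genes were. Without manual embryo 1 it was 14 and 13, where 12.3% and 15.3% of all genes were. The largest lower value was that of NDUFA9, a complex I subunit, with 9603, 3892 and 8534 counts in LCM node cells against 19044, 19718 and 12023 in manual node cells. The 70 cytosolic ribosomal proteins were little separated, with 1 higher (1.43%) and 2 lower (2.86%) without overlap. With upper quartile scaling it was 1 and 25, against 5.45% and 14.7% of all genes. Without manual embryo 1 it was 2 and 33, against 12.3% and 15.3% of all genes. RPS27A was the higher one, with 15798, 15084 and 16772 LCM node counts against 8824, 3950 and 8092 manual node counts. RPS3 and RPL3 were the lower ones, by -0.66 ± 0.28 and -0.47 ± 0.24. Mitochondrial ribosomal proteins gave 8 higher (13.3%) and 5 lower (8.33%) of 60, the proteasome 5 (16.7%) and 3 (10%) of 30, and histones 1 and 0 of 5. With upper quartile scaling these lists gave 4 and 12, 1 and 7, and 0 and 0, against 5.45% and 14.7% of all genes. Z-linked genes gave 45 higher (8.88%) and 52 lower (10.3%) of 507, near the share of all genes.

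**Figure D5:**
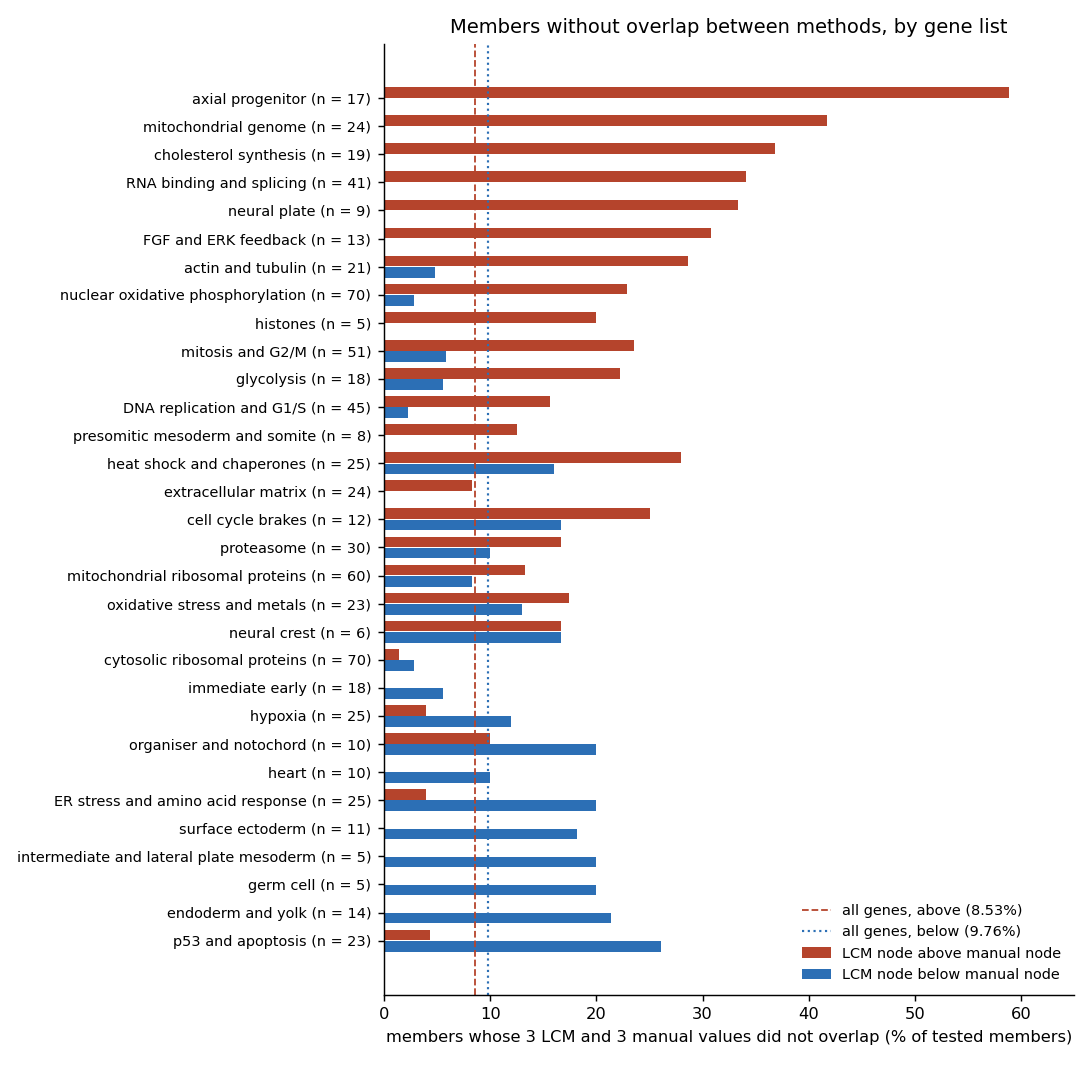
Share of tested members (horizontal axis, percent) of each gene list whose 3 LCM node values all lay above (red) or all below (blue) the 3 manual node values, with the shares of all 9770 genes as lines at 8.53% and 9.76%. The growth zone list reaches 58.8% on the LCM side. Lists that lean to the manual side include p53 and apoptosis, endoderm, amino acid response, surface ectoderm, germ cell and lateral mesoderm. The last 2 have 5 tested members each.

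Detection was compared as well as level. No gene had at least 100 counts in each library of a method and 0 in each library of the other. With up to 10 counts allowed per library, a limit chosen after the values were seen, 46 genes were present in manual node cells only and 0 in LCM node cells only. Of the 46, 41 had 0 or 1 count in LCM embryo 1, and LCM embryo 2 had the highest LCM count for 33. The most abundant after TDH were CPZ, SUSD1, KCTD17 and RIPPLY3. CPZ, a carboxypeptidase that binds Wnt proteins, had 0, 8 and 4 LCM node counts against 2349, 640 and 643 manual node counts. SUSD1, a sushi domain protein, had 0, 1 and 4 against 445, 1314 and 619. RIPPLY3, a repressor that works with T-box factors, had 0, 1 and 2 against 788, 674 and 433, and only 17, 0 and 0 counts in manual lateral tissue. These genes were thus near 0 by laser and well counted by hand in each embryo. KCTD17 had 2, 6 and 1 counts in LCM node cells against 545, 168 and 1499 in manual node cells, but 1130, 936 and 610 in LCM lateral tissue, so it was detected in laser-captured material. Of the 46 genes, 24 had at least 100 counts in some LCM lateral library and 14 had at most 10 in all of them.

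Spread between embryos depended on the measure and on expression level. Fitted separately, the biological coefficient of variation was 152% in LCM node cells and 128% in manual node cells, and the median SD of log2 CPM was 1.60 and 1.15. Among the 2824 genes with a mean count of 10 to 100 the order was the other way, with a median SD of 1.80 in LCM node cells and 2.61 in manual node cells. Of the 9770 genes, 6581 were counted in all 3 LCM node libraries and 7309 in all 3 manual node libraries, while 206 and 115 were counted in none. Genes at 0 in a single library but at 100 or more counts in the other 2 of the method numbered 230 in LCM node cells and 310 in manual node cells. Of these, 175 were missing from LCM embryo 1 and 194 from manual embryo 3. Log2 CPM correlated at 0.685 to 0.699 between LCM node libraries, at 0.699 to 0.727 between manual node libraries and at 0.632 to 0.731 across methods, over genes and with no test. The highest value across methods was between LCM embryo 2 and manual embryo 1.

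The same embryos gave lateral tissue, ectoderm and mesoderm beside the Organiser, by the same method, so method differences can be set side by side. In lateral tissue 684 genes (7.00%) were higher and 1092 (11.2%) lower by laser without overlap. Of the node genes, 271 were higher in both tissues, 32.5% of those in node and 39.6% of those in lateral, and 298 were lower in both, 31.2% and 27.3%. The node and lateral libraries come from the same embryos, so an embryo that differs enters both counts. DLL1 had 10355, 1011 and 5217 LCM lateral counts against 409, 158 and 53 manual lateral counts, a log2 fold change of 4.94 ± 1.06 beside 5.17 ± 0.78 in node. TDH had 1, 0 and 0 against 115, 1388 and 2819, and NID2 had 3233, 2191 and 3678 against 367, 97 and 208. The same side was seen in node and lateral tissue for all 3. Of the growth zone genes 8 of 17 were higher in lateral tissue without overlap, and of the mitosis genes 15 of 51 were higher and 2 lower. Other lists had a different split in the 2 tissues. Cholesterol and lipid synthesis had 2 higher and 4 lower in lateral tissue (7 and 0 in node), replication 2 and 5 (7 and 1 in node), and the actin, tubulin and myosin genes 2 and 3 (6 and 1 in node). These differences between tissues were not tested by list. Of the endoderm genes 6 of 14 were lower, with RBP4 at 9, 13 and 5 counts in LCM lateral against 67711, 2758 and 232 in manual lateral tissue.

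Whether the method difference itself differed between node and lateral tissue was tested in edgeR over all 12 libraries with the embryo as a block. Of 9770 genes 0 (0%) were called, with 0.253 as the lowest adjusted p. Before adjustment 244 were under 0.05. GPR126 came nearest among named genes, with 2186, 358 and 1903 LCM node counts against 9953, 10552 and 2230 manual node counts, and 4, 4 and 3 LCM lateral counts against 9033, 703 and 1523 manual lateral counts. The difference between the 2 method effects was 6.87 ± 1.21 (log2; edgeR adjusted p = 0.253). Among genes without overlap in both tissues 20 had opposite directions, 10 each way. FOXM1, a factor that drives mitotic genes, had 6024, 4683 and 5920 LCM node counts against 4710, 1745 and 1586 manual node counts, but 19, 35 and 1618 LCM lateral counts against 6222, 2891 and 1249 manual lateral counts. In lateral tissue LCM embryo 3 lay above manual embryo 3 in counts.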

How the data were processed

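Full-length cDNA from 12 libraries was sequenced, and 6 node libraries were compared, 3 embryos for each method. The deposited counts are whole reads per Ensembl gene, 1 column per library and not pooled, per the file headers. Bowtie2 2.2.3 is named, with no role, per the submitters' processing notes. For the counter, its strand setting and the genome build the sources used here give nothing, and coordinates are those of the authors' table. The deposited normalized signal is the count divided by 1 size factor per library, as the values of the authors' files show, and it entered only an alternative, as log2 of the value plus 1. Names came from the authors for 11420 genes and from RefSeq for 621, and 1065 had none.

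Genes with a mean count of 10 or more were tested with edgeR 4.0.16 (R 4.3.3) after TMM scaling, with Benjamini-Hochberg adjustment over all 9770 and calls under 0.05. Fold changes are LCM over manual with standard errors (SE). DESeq2 1.42.0, limma 3.58.1, other filters and scalings, left-out libraries, blocks and subtraction of carried reads were the alternatives. The scripts were checked on simulated counts with 50 changed genes at each log2 fold change of 2, 4, 6 and 8. The node test recovered 4, 14, 26 and 37 of them, with 12 false calls. False calls thus took a larger share of its calls than the threshold of 0.05 allows. The test of the method difference in node minus that in lateral tissue recovered 3, 8, 15 and 22, with 1 false call. Its simulation held 10125 genes, those with a mean count of 10 or more over all 12 libraries. Most changes of 2 or 4 were thus missed, so 0 calls do not mean that no gene differs. CPM values are scaled for depth and for TMM. The labels name embryos but no other batch. The genes named are, in each direction, the 10 of smallest p with no overlap and an average log2 CPM of 5 or more, up to 4 members of smallest p per list, the 10 most abundant genes and the most abundant genes restricted to a method. Other list members and the genes of opposite direction were chosen after their values were seen. The members and lists were chosen with earlier results of these data known. Near-identical gene copies may share reads, and without a stated strand setting antisense partners cannot be told apart.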

Additional observations from a re-analysis of the deposited data

How the results depend on the processing

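The counts of called genes depended on the test and on single libraries. In edgeR 0 genes were called in either direction as reported. Higher calls numbered 33 with no filter on low counts, 186 in DESeq2, 1 in limma voom and 30 with the embryo number as a replicate block. Lower calls numbered 17 with no filter, 294 in DESeq2, 18 with the replicate block and 2, RBP4 and PLCXD1, with the carried share subtracted. With 1 library left out, higher calls ranged from 0 to 31 and lower calls from 0 to 5, the highest of each without manual embryo 1. Of the 480 DESeq2 calls, 172 higher and 267 lower ones had no overlap, and 2511 genes had no adjusted p there. With upper quartile scaling 532 genes were higher and 1439 lower without overlap. With 1 library left out these counts were 935 to 1509 and 1315 to 1787, where fewer samples make separation easier. The cause of the other shifts was not tested. Embryo numbers did not pair the libraries, since same-numbered LCM and manual libraries correlated at -0.055, -0.040 and 0.030 in their deviations. Of the 154 genes named by rule, 58 passed the threshold under at least 1 setting and 17 took both signs over the settings, among them TBX6 (-0.18 to 1.48), GAPDH (-0.50 to 0.13) and MT-CO3 (-1.17 to 0.20). The test of whether the method difference differed between node and lateral tissue called 0 genes in every setting. When an embryo was left out, 132 to 592 genes had an unadjusted p under 0.05 in it.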
